A study of Mus musculus with 13 samples.

Results

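LIM homeobox genes encode transcription factors that combine a pair of LIM domains, through which they contact cofactors such as LDB1, with a homeodomain that recognises AT-rich sites containing TAAT. Several of them pattern the limb bud: Lmx1b gives dorsal identity to limb mesenchyme under the control of Wnt7a from the dorsal ectoderm, and Lhx2 and Lhx9 act with it in outgrowth. The homeodomain gene En1 is expressed in the ventral ectoderm, where it keeps Wnt7a off. In the forebrain the same families act in other ways: Lhx2 in the cortical primordium, Lhx6 and Lhx8 in neurons that arise in the ventral telencephalon, Lhx1 and Lhx5 in early neurons and in the diencephalon, and Lmx1a in the dorsal midline. En2 is known for its role at the border of midbrain and hindbrain.

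The chromatin around 10 of these genes (Lmx1a, Lmx1b, Lhx1, Lhx2, Lhx5, Lhx6, Lhx8, Lhx9, En1 and En2) was examined by ATAC-seq, in which the transposase Tn5 cuts accessible DNA. The forebrain (FB) and the proximal (PFL) and distal part of the forelimb (DFL) were taken at E12.5 from B6CBAF1 embryos, and each library was made from 50000 cells. Both wild-type (wt) embryos and embryos of the allele 542 were used, with 2 replicates for each tissue and genotype, so that 12 libraries formed 6 groups and each tissue had 4 libraries. Allele 542 (II1TDOM 542) carries a copy of the distal limb enhancer II1 with an HBB promoter and a LacZ reporter in the T-DOM domain next to the HoxD cluster. Its embryos were homozygous, each replicate was a pool of embryos, and 542 reads were mapped to a mutant genome while wt reads were mapped to mm10, so that genotype cannot be told apart from the mapping genome. A further wt DFL library, an earlier sample that was analysed again, had no partner and is given only where named.

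Every accessible region in the deposited lists was assigned to a gene when its strongest summit lay within 100 kb of the gene body in GENCODE M21. The gene bodies on mm10 (GRCm38) are chr1:167689237-167848741 for Lmx1a, chr2:38339281-38369733 for Lhx2, chr5:120431699-120441223 for Lhx5, chr1:120602418-120607992 for En1 and chr5:28165694-28172166 for En2 on the plus strand, and chr2:33560965-33640511 for Lmx1b, chr11:84518284-84525535 for Lhx1, chr2:36081953-36105408 for Lhx6, chr3:154306294-154330659 for Lhx8 and chr1:138825186-138848577 for Lhx9 on the minus strand. Distances below run from the start of a gene in its direction of transcription. The rule gave 2113 different regions of 1357031 in the 13 libraries together. A library of the 6 groups held 119 to 193 of them, and the earlier wt DFL sample 223. Regions that overlapped between libraries by at least 1 bp were joined, which left 387 joined regions, of which 217 had their summit between annotated genes, 140 in introns, 16 in untranslated regions, 6 in coding exons and 8 in other exons. The number of joined regions per 100 kb of window was lowest around En2 (11.6) and Lhx5 (12.4) and highest around Lmx1b (22.2). At the edge of the rule, the outermost region of each gene inside 100 kb lay 92.8 to 99.8 kb from the gene body and reached a fold of 3.08 to 16 in its strongest library. The nearest region beyond the limit lay at 100.3 to 109.1 kb and reached 2.57 to 12.7.

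The values used below are the deposited folds, that is the tags under the strongest summit of a region over the local background of the same library. A region listed for a library is termed called there, and a library without a call is not a library without cutting, since weak sites are left out of the lists. For tests, log2 folds were scaled to the median of the regions called in all 12 libraries, folds under 3 and missing calls were set to 3 (the floor), and regions above the floor in at least 2 libraries were kept. Of the 387 joined regions 226 passed this filter. Each was tested with limma in a fit of 145907 regions across the genome, and p-values were adjusted over all of them with the Benjamini-Hochberg method at a threshold of 0.05. Differences are given as log2 differences of the scaled fold ± SE. Where 1 tissue lacked calls the difference depends on the floor and understates the contrast. Libraries at the floor share 1 value, so that SE and p-value can be too small there. A region called in 1 tissue alone entered the test through that tissue. One called in limb libraries and in no FB library entered through the limb. One above the floor in 542 libraries alone entered through that genotype. Where such libraries are compared with the others, the p-value restates the calls and is no separate support. Before scaling, regions called everywhere had a median log2 difference that was lower by 0.14 for DFL against FB and by 0.21 for PFL against FB, so that all changes are relative to this shift. FB libraries were also deeper (51.4 to 70.7 M tags, as estimated from the lists, where M stands for 1e6) than DFL (40.2 to 54.5 M) and PFL libraries (37.5 to 52.7 M). A bulk library cannot separate fewer open cells from weaker opening in each cell.

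The tissue labels were read against regions around marker genes. Around the limb mesenchyme genes Prrx1, Tbx5, Twist1 and Msx1, 29 of 86 tested regions were higher and 5 lower in DFL than in FB, whereas around the forebrain genes Emx2, Neurog2 and Six3 the numbers were 2 higher and 6 lower of 20, 2 and 7 of 15, and 4 and 3 of 18. Between DFL and PFL, 8 of 47 regions around Hoxa13 and Hoxd13 were higher and 4 lower, while around Meis1 and Shox2 3 of 51 were higher and 5 lower. Of all tested regions 10.7% were higher and 11.9% lower in DFL than in PFL. The share of lower regions around Meis1 and Shox2 was therefore not above that of all regions. In DFL against FB 22.6% of all tested regions were higher and 19.6% lower. Beside these shares stand the counts around genes of other cell types. Around the ectoderm genes Krt5 and Trp63 9 regions of 38 were higher in DFL than in FB and 11 lower. Around the endothelial genes Kdr and Cdh5 8 of 43 were higher and 2 lower. Around the blood genes Hbb-bt and Gata1 3 of 20 were higher and 4 lower, and around Sox10 4 of 17 were lower. Around the muscle genes Myod1 and Pax3 9 of 40 were lower in DFL than in PFL and 3 higher, beside the shares for DFL against PFL above. The part of other cell types in the results below was not tested.

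The 6 regions whose sequences are given here carry the main contrasts: regions that were strong in FB inside Lmx1b and beside Lhx5 and Lhx6, a limb region beside Lhx8, a region called only in DFL beside Lhx9 and a region called only in PFL beside En1. Each sequence covers 200 bases around the summit on the plus strand of GRCm38. Capitals mark matches on either strand to TAATTA (a core of LIM homeodomain sites), CAATAAA (HOX13), TGACAG (MEIS) or CAGATG (an E-box of proneural factors). The regions beside Lhx5 and En1 hold none of these letters and have no capitals.
Lmx1b, intron, 23.9 kb downstream of the start, chr2:33616474-33616673: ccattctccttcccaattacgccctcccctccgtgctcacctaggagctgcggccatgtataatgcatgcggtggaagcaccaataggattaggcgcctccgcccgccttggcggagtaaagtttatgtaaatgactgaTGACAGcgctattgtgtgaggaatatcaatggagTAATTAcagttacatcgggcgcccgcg
Lhx6, intron of Morn5, 27.9 kb downstream of the start, chr2:36077447-36077646: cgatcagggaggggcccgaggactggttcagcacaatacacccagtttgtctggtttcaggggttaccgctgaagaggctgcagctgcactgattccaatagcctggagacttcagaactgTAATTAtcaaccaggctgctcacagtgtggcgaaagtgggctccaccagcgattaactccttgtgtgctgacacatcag
Lhx5, intergenic, 22.0 kb upstream of the start, chr5:120409603-120409802: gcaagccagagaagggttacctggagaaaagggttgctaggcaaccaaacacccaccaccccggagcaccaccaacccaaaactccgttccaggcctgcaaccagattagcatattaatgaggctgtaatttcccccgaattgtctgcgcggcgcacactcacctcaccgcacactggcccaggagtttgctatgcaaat
Lhx8, intergenic, 9.8 kb upstream of the start, chr3:154340389-154340588: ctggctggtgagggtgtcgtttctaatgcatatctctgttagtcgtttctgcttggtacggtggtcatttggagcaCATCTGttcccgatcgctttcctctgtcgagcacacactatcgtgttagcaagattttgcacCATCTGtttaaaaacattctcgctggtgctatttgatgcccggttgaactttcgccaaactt
Lhx9, intergenic, 53.5 kb upstream of the start, chr1:138901960-138902159: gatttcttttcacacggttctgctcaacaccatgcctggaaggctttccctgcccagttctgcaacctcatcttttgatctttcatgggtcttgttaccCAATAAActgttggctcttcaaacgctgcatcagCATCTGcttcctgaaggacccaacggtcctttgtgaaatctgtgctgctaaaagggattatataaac
En1, intron of 2610027F03Rik, 48.0 kb downstream of the start, chr1:120650274-120650473: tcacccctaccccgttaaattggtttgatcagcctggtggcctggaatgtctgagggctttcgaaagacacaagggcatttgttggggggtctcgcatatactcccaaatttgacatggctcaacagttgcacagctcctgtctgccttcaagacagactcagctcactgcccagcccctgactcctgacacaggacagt

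The first question was whether the regions around these genes differ between limb and forebrain. The 226 regions split about evenly. In DFL against FB 52 of the 226 tested regions were higher and 51 lower, 103 in all, where 42.1% of all tested regions in the genome passed (22.6% higher and 19.6% lower). In PFL against FB 47 were higher and 49 lower, where 45.9% of all regions passed (25.6% higher and 20.3% lower). The median difference over the 226 regions was 0.00 and 0.01, and over all tested regions 0.01 and 0.04. Without the scaling the PFL split was 41 higher and 64 lower, and with quantile normalization 42 higher and 59 lower, so that the balance of directions for PFL moves with the scaling. Both comparisons share the same FB libraries.

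The genes themselves fell on different sides of this balance. Around Lhx1, Lhx5, Lhx6 and En2 most called differences were towards the forebrain. DFL against FB gave 2 regions higher and 6 lower of 12 at Lhx1, 1 and 6 of 15 at Lhx5, 1 and 7 of 19 at Lhx6, and 1 and 4 of 10 at En2. Around Lmx1b and Lhx9 most were towards the limb, with 11 higher and 4 lower of 39 at Lmx1b and 7 and 2 of 24 at Lhx9. Lmx1a (8 and 5 of 35), Lhx2 (8 and 8 of 27), Lhx8 (8 and 6 of 25) and En1 (5 and 3 of 20) held both kinds side by side. PFL against FB gave 0 higher and 6 lower at Lhx1 (limma; also 0 higher at an unadjusted p under 0.05), 1 and 5 at Lhx5, 2 and 7 at Lhx6, 2 and 4 at En2, 6 and 4 at Lmx1b, 4 and 1 at Lhx9, 10 and 4 at Lmx1a, 7 and 8 at Lhx2, 9 and 6 at Lhx8, and 6 and 4 at En1. Of all tested regions 22.6% were higher and 19.6% lower in DFL against FB, and 25.6% and 20.3% in PFL against FB. In PFL the shares of higher regions at Lmx1b (6 of 39) and Lhx9 (4 of 24) lay below that of all regions, and so did their shares of lower regions. The lean of these 2 genes towards the limb thus refers to the direction of the calls. The difference between genes was not tested.

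**Figure D1:**
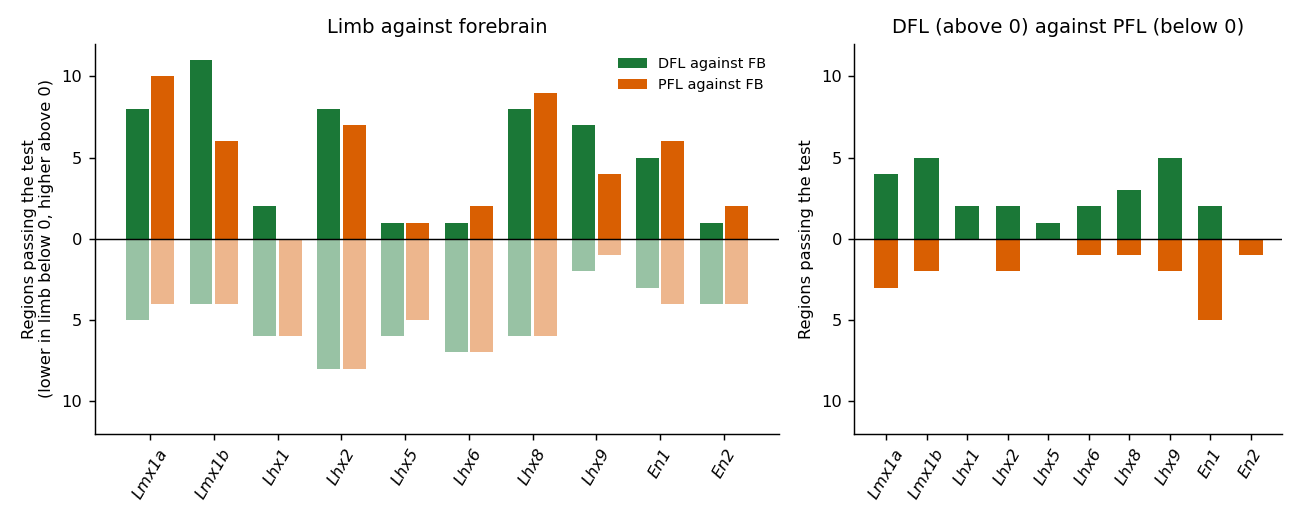
Number of tested regions around each gene that passed the test, with limb above FB upwards and below FB downwards in the left panel, and DFL above PFL upwards and below PFL downwards in the right panel. Lhx1, Lhx5, Lhx6 and En2 have longer bars towards FB, Lmx1b and Lhx9 towards the limb, and En1 is the gene with the most regions (5) higher in PFL than in DFL.

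The number of deposited regions per library set 2 of these genes apart most plainly. Around Lhx5, which is expressed in early forebrain neurons, FB libraries held 12 to 18 regions, DFL libraries 6 to 8 and PFL libraries 3 to 7. Around Lhx1 FB libraries held 10 to 14, DFL libraries 6 to 9 and PFL libraries 2 to 9. Neither gene's FB counts overlapped the limb counts. Over the genome the totals did overlap, with 94036 to 109886 regions in FB libraries, 97751 to 118297 in DFL and 85070 to 113827 in PFL. These 2 of the 10 genes were picked by their counts. Depth was also higher in FB, and when only the 50000 strongest regions of each library were kept, Lhx1 still had 4 to 5 in FB against 3 in each DFL and 2 in each PFL library, while Lhx5 overlapped between FB (4 to 6) and DFL (3 to 4). Lhx6, which is active in ventral forebrain neurons, had 15 to 17 regions in FB and 12 to 19 in the limb in all, but 12 to 13 in FB against 7 to 10 in DFL and 6 to 7 in PFL among the 50000 strongest. Lhx8 was reversed near the gene. Within 50 kb of its body FB libraries held 3 to 5 regions, DFL libraries 10 to 12 and PFL libraries 9 to 12. In the 100 kb window used for the other genes, FB libraries held 12 to 15, each DFL library 16 and PFL libraries 15 to 21, so that FB and PFL met. Among the 50000 strongest all 3 tissues overlapped at Lhx8, with 9 to 11 in FB, 9 to 11 in DFL and 7 to 10 in PFL. Lhx9 counts ran from 13 to 27 in DFL, 10 to 18 in PFL and 11 to 16 in FB and overlapped.

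**Figure D2:**
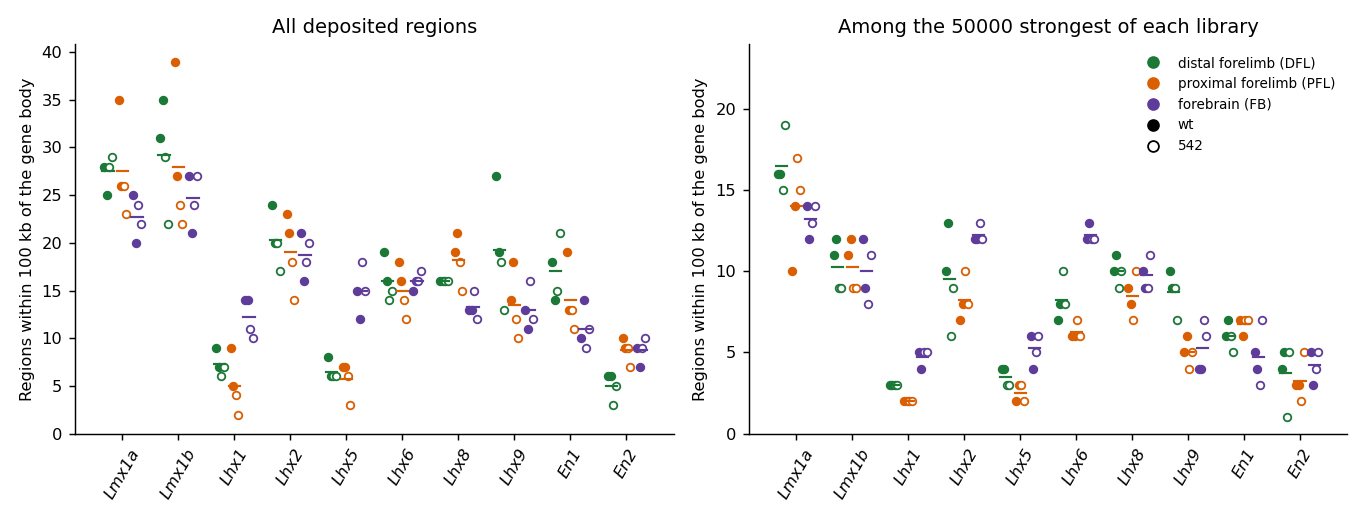
Number of deposited regions within 100 kb of each gene body in each of the 12 libraries, over all regions (left) and among the 50000 strongest of each library (right), with bars for the mean of the 4 libraries of a tissue. FB libraries stand above both limb parts at Lhx1 in both panels, at Lhx5 in the left panel and at Lhx6 in the right panel.

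The positions of the called differences are shown in the plot of tested regions around each gene. Of the 193 tested regions that were not at the start of a coding gene, 47 were higher and 43 lower in DFL than in FB. At starts of the 10 genes 2 were higher and 2 lower of 17 tested, and at starts of other coding genes 3 and 6 of 16. Over the genome 22.6% of all tested regions were higher and 19.6% lower. Genome shares for each class were not computed, and the difference between classes was not tested. In regions called in all 12 libraries, where no value was set to the floor for lack of a call, the same test gave 8 higher and 7 lower in DFL against FB (33% of such regions in the genome passed), 8 and 6 in PFL against FB (36.5%) and 2 and 2 in DFL against PFL (7.58%). Regions called in every FB library and in no limb library numbered 24 of 387 (6.13% of all joined regions in the genome), and regions called in all 8 limb libraries and in no FB library 13 (3.63%). A further 42 were called in all 12 libraries (10.2%), 5 only in DFL (1.32%) and 8 only in PFL (1.18%), each in all 4 libraries of the tissue. The 24 FB regions were at Lhx2 (5), Lhx1, Lhx5 and Lhx8 (4 each), Lhx6 and En2 (2 each) and Lmx1a, Lmx1b and En1 (1 each). The 13 limb regions were at Lhx8 (4), Lmx1a, Lhx2 and En1 (2 each) and Lmx1b, Lhx6 and Lhx9 (1 each).

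**Figure D3:**
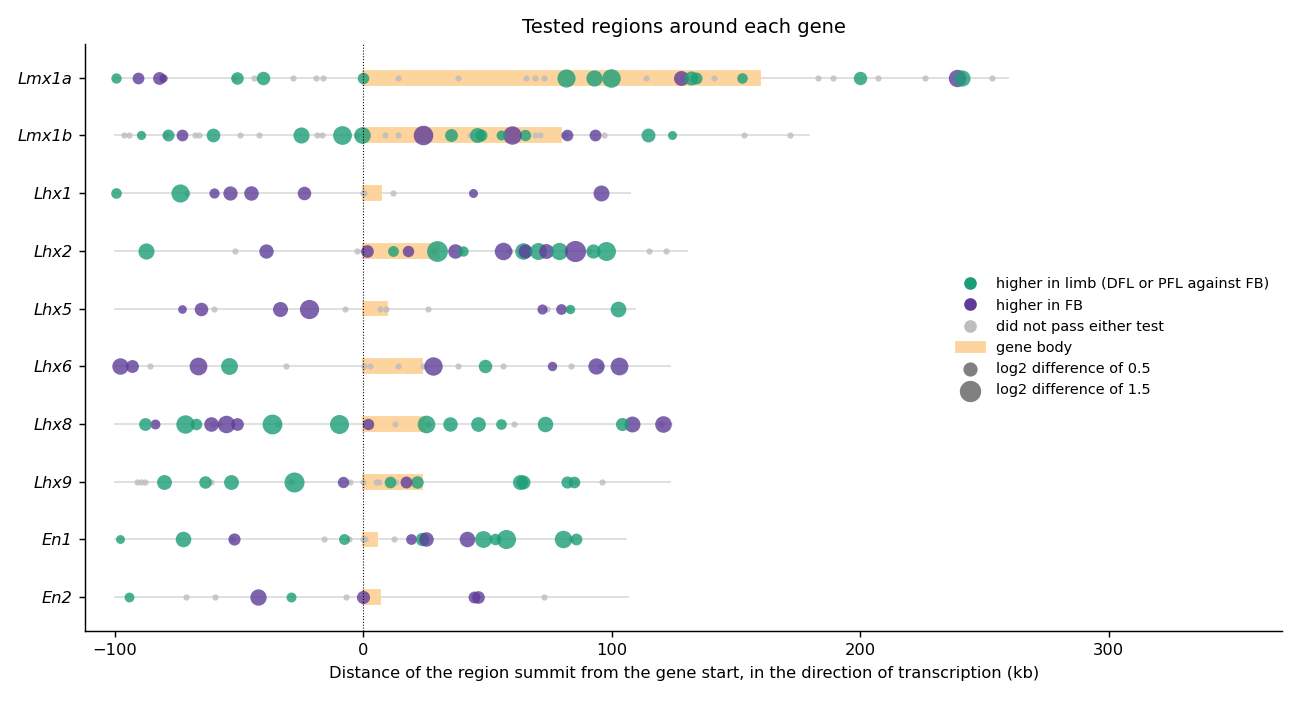
Distance of each of the 226 tested regions from the start of its gene along the direction of transcription, with a bar for the gene body. Green marks regions higher in DFL or PFL than in FB, purple regions higher in FB and grey regions that passed neither test, and the size grows with the larger of the 2 log2 differences. Limb and forebrain regions lie interleaved at Lmx1a, Lmx1b, Lhx2, Lhx8 and En1.

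The promoters of most of these genes were called in all 3 tissues. For each gene the promoter region is the one with the highest mean fold within 1 kb of an annotated transcript start. The clearest limb promoter was that of Lmx1b, the dorsal determinant of limb mesenchyme, whose start it shares with the noncoding gene C130021I20Rik (chr2:33640688-33641388). Its folds were 6.0 and 7.96 in wt DFL, 4.93 and 5.90 in 542 DFL, 6.99 and 6.05 in wt PFL, 6.23 and 6.19 in 542 PFL, 4.81 and 2.73 in wt FB, and 3.20 and 3.16 in 542 FB. Every limb library was above every FB library. The difference was 0.92 ± 0.14 for DFL against FB (limma, adjusted p = 0.000783) and 1.04 ± 0.14 for PFL against FB (adjusted p = 0.000347). DFL and PFL differed by -0.12 ± 0.14, which did not pass (adjusted p = 0.652).

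The promoter of En2 went the other way (chr5:28165209-28167234). Its folds were 6.71, 6.39, 8.73 and 7.42 in the FB libraries, 4.95, 5.85, 4.13 and 4.99 in DFL and 3.70, 3.99, 4.70 and 4.43 in PFL, again without overlap. The difference was -0.41 ± 0.11 for DFL against FB (limma, adjusted p = 0.0137) and -0.58 ± 0.11 for PFL against FB (adjusted p = 0.00204). The DFL call was lost among the 50000 strongest regions of each library (adjusted p = 0.0517) and with tags scaled to depth (adjusted p = 0.0663). En2 is best known from the midbrain and hindbrain, and whether other brain tissue entered the FB dissection was not tested.

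Lhx8, a gene of ventral telencephalic neurons, had its strongest promoter region 2.0 kb inside the gene at an internal transcript start. Its folds were 7.70, 7.63, 6.82 and 8.76 in FB, 5.68, 6.55, 4.88 and 5.26 in DFL, and 5.45, 4.59, 5.99 and 4.29 in PFL. It was lower in PFL than in FB by 0.40 on the log2 scale (limma, SE 0.12, adjusted p = 0.0231), and this call was lost in 5 of 12 fits that left out 1 library (replicate 2 of wt or 542 PFL, wt FB replicate 1 or 2, or 542 FB replicate 2), with adjusted p up to 0.0708. DFL against FB gave -0.32 ± 0.12 (adjusted p = 0.0581). The Lmx1a promoter differed by 0.41 ± 0.13 in PFL against FB (limma, adjusted p = 0.0326), a call lost in 7 of 12 fits that left out 1 library (any PFL library or any FB library but wt FB replicate 2; adjusted p up to 0.113), and by 0.36 ± 0.13 in DFL against FB (adjusted p = 0.062).

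The strongest Lhx2 promoter region lay 11.7 kb inside the gene at the start of shorter transcripts, with folds of 11.1 to 13.5 in DFL, 10.7 to 13.2 in PFL and 10.2 to 11.4 in FB. Its differences of 0.33 ± 0.07 (limma, adjusted p = 0.00371) and 0.34 ± 0.07 (adjusted p = 0.00299) were small, and the PFL difference turned to -0.21 (adjusted p = 0.0459) when tags scaled to library depth took the place of folds, so that its direction is not settled. At the annotated start of the long transcript the fold was 2.88 to 5.25 in DFL, 3.47 to 5.27 in PFL and 3.56 to 4.56 in FB. A further region 1.5 kb into Lhx2, chosen after its values were seen, was called in the 4 FB libraries at 4.10 to 5.19 and in no limb library.

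The promoters of Lhx1, Lhx9, Lhx6 and En1 did not pass in any comparison of tissues with the scaled fold. With tags scaled to library depth, the Lhx9 promoter passed in DFL against FB (0.68; limma, adjusted p = 0.0103), that of Lhx6 in DFL (-0.79, adjusted p = 0.0159) and PFL against FB (-0.75, adjusted p = 0.0199) and that of En1 in PFL against FB (0.58, adjusted p = 0.0268), and without the scaling that of Lhx1 passed in PFL against FB (-0.51, adjusted p = 0.0346). The Lhx1 promoter, which is shared with the antisense gene Lhx1os, had folds of 5.11 to 7.61 in DFL, 4.57 to 6.19 in PFL and 6.52 to 9.11 in FB, and that of Lhx9 4.58 to 5.64, 4.57 to 6.15 and 4.64 to 6.36. The region at the En1 start had folds of 2.86 to 4.6 in DFL, 2.85 to 3.85 in PFL and 3.01 to 4.11 in FB, near the floor. The Lhx6 promoter was as weak, with 2.94 to 4.56 in DFL, 3.19 to 3.52 in 3 PFL libraries and 3.92 to 4.32 in FB. Lhx5 had the weakest promoter of all, called in 3 FB libraries at 3.47, 2.78 and 2.48 and in no limb library, which left it out of the test.

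**Figure D4:**
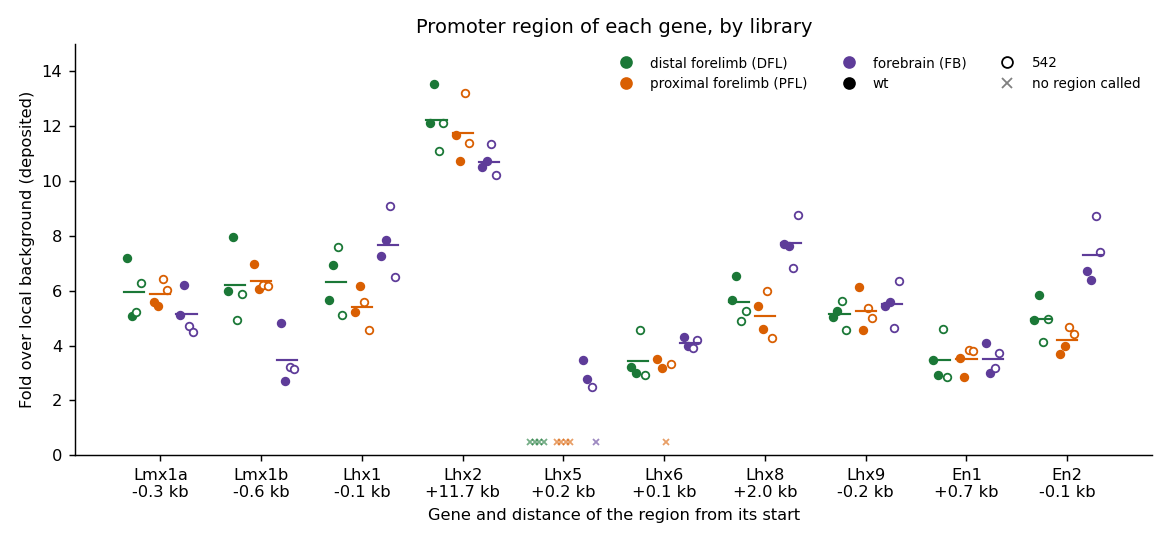
Deposited fold of the promoter region of each gene in each library, with filled points for wt, open points for 542, crosses for libraries without a call and bars for the mean of a tissue where all 4 libraries were called. The limb libraries lie above the FB libraries at Lmx1b and below them at En2, and at Lhx5 a region was called in 3 FB libraries only.

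Away from the promoters, Lmx1b combined limb and forebrain regions in 1 window. A region 8.6 kb upstream of its start (chr2:33648708-33649353) was called in every limb library, at 9.57 and 7.91 in wt DFL, 6.45 and 3.73 in 542 DFL, 8.23 and 5.83 in wt PFL and 9.14 and 6.40 in 542 PFL, and in no FB library. DFL and PFL overlapped here and both stood apart from FB. The difference was 1.15 ± 0.19 for DFL (limma, adjusted p = 0.00126) and 1.37 ± 0.19 for PFL (adjusted p = 0.000414). The region 23.9 kb inside the gene, whose sequence with TAATTA and TGACAG is given above, had the opposite pattern, with 11.1, 9.30, 11.1 and 10.7 in FB, 3.60, 4.42, 4.55 and 5.15 in DFL, and 3.24, 3.42 and 3.59 in 3 PFL libraries and no call in the fourth. It was lower by 1.11 in DFL (SE 0.11, adjusted p = 6.42e-05) and by 1.5 in PFL (SE 0.11, adjusted p = 1.02e-05). Another region, 60.5 kb upstream, separated the limb parts: it had 7.46, 7.42, 8.65 and 8.46 in DFL, 3.57, 4.24, 3.82 and 5.20 in PFL and 4.68 to 7.09 in FB. DFL exceeded PFL there by 0.87 ± 0.15 (limma, adjusted p = 0.00324) without overlap of libraries.

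Lhx9 acts with Lhx2 and Lmx1b in limb outgrowth. Its region with the largest difference from FB, called in both limb parts, lay 28.0 kb upstream in an exon of the noncoding gene 1700019P21Rik. Folds were 6.53, 8.28, 7.14 and 8.17 in DFL and 8.99, 8.84, 8.36 and 7.68 in PFL, while FB had calls of 2.79 and 3.23 in the 542 libraries only. The differences were 1.35 ± 0.10 (limma, adjusted p = 6.34e-06) and 1.59 ± 0.10 (adjusted p = 2.53e-06). At this gene 5 of 24 regions were higher in DFL than in PFL, among 7 that passed in either direction. At Lmx1b 5 of 39 were higher, also among 7, and of all tested regions 10.7% were higher and 11.9% lower. Among those at Lhx9, the region 53.5 kb upstream was called in the DFL libraries alone, at 5.13, 4.03, 5.71 and 5.85, and also in the earlier wt DFL sample at 5.57. It differed from PFL by 0.80 ± 0.09 (adjusted p = 0.000338), and its printed sequence holds CAATAAA and CAGATG. A region 63.1 kb downstream of the start had 6.08 to 6.71 in DFL, 2.71 to 3.86 in the 3 PFL libraries with a call and 2.80 to 5.32 in the 3 FB libraries with a call.

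Lhx2, a gene of both the limb mesenchyme and the cortical primordium, held limb and forebrain regions downstream of its start. The region with the largest difference lay 85.3 kb downstream in an intron of the noncoding gene Gm13589 (chr2:38423727-38425327) and had 12.2, 12.1, 12.1 and 12.8 in FB, 3.08, 2.45, 3.64 and 3.21 in DFL, and 4.5, 3.62, 2.97 and 3.94 in PFL. FB was far above both limb parts. Among the 226 regions no other differed as much from FB in DFL: it was lower by 1.78 in DFL (limma, SE 0.13, adjusted p = 8.06e-06) and by 1.52 in PFL (SE 0.13, adjusted p = 2.01e-05). A region over the last part of Lhx2, 29.7 kb from the start in a coding exon, had the largest positive difference from FB in PFL. Its folds were 10.0, 9.59, 12.2 and 7.79 in PFL, 8.76, 9.69, 5.34 and 5.31 in DFL, and 2.39 and 3.75 in the FB libraries with a call. The differences were 1.19 ± 0.12 for DFL (adjusted p = 6.92e-05) and 1.73 ± 0.12 for PFL (adjusted p = 6.94e-06). At 70.1 kb downstream a region was called in DFL at 6.59, 6.36, 8.11 and 4.53, in no PFL library and in 1 FB library at 2.99, and DFL exceeded PFL by 1.09 ± 0.16 (adjusted p = 0.00171). This call was lost at a −log10 q of at least 10 and among the 50000 strongest regions (adjusted p up to 0.0546).

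Around Lmx1a, a gene of the dorsal midline and of midbrain dopaminergic neurons, the regions with the largest differences from FB lay inside the long gene body. The region 99.7 kb from the start had folds of 7.47, 5.82, 7.85 and 9.08 in DFL, 4.34, 4.49, 5.92 and 5.30 in PFL and 1 FB call at 2.69. The region 81.4 kb from the start had 5.42, 7.0, 8.48 and 8.12 in DFL, 4.66, 4.22, 7.33 and 5.39 in PFL and no FB call. Both were higher in DFL than in FB, by 1.34 ± 0.10 (limma, adjusted p = 9.24e-06) and 1.28 ± 0.11 (adjusted p = 2.27e-05). Both also passed in PFL against FB, at 0.82 ± 0.10 (limma, adjusted p = 0.00018) and 0.91 ± 0.11 (adjusted p = 0.000178). Beyond the gene, a region 239.0 kb from the start was open in FB (6.12 to 8.58) and DFL (3.51 to 6.35) and had 1 PFL call at 2.06, and DFL exceeded PFL by 0.69 ± 0.13 (adjusted p = 0.00652).

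En1, which is known in the limb from the ventral ectoderm, had its limb regions downstream within the noncoding gene 2610027F03Rik, and it had more regions higher in PFL than in DFL than any other of the 10 genes. The region 57.3 kb downstream had 8.04, 7.69, 7.28 and 7.39 in PFL, 5.57, 6.78, 5.98 and 5.84 in DFL and no FB call, with differences from FB of 1.43 ± 0.09 (limma, adjusted p = 3.08e-06) and 1.03 ± 0.09 (adjusted p = 2.13e-05). The region 48.0 kb downstream, printed above, was called at 5.95, 7.36, 6.73 and 4.19 in PFL and in no other tissue. PFL exceeded DFL there by 1.08 on the log2 scale, written as -1.08 ± 0.13 for DFL against PFL (adjusted p = 0.000628). A region 80.3 kb downstream had 7.41, 6.28, 6.62 and 5.22 in PFL and 5.22, 4.2, 3.82 and 2.37 in DFL. It passed in PFL against FB at 1.17 ± 0.12 (limma, adjusted p = 7.58e-05), while its DFL call of 0.42 ± 0.12 (adjusted p = 0.0239) was lost in 6 of 12 fits that left out 1 library (any of the FB libraries, or replicate 1 of wt or 542 DFL), with adjusted p up to 0.0756. In all 5 of 20 regions were lower and 2 higher in DFL than in PFL at En1, where 11.9% of all tested regions were lower and 10.7% higher.

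Lhx8, known from ventral forebrain neurons, held strong regions of both limb parts. The region 36.8 kb upstream was called at 7.95, 7.98, 6.64 and 11.2 in DFL and 7.77, 7.87, 9.35 and 7.99 in PFL, and the region 9.8 kb upstream at 8.08, 8.01, 6.27 and 6.65 in DFL and 7.99, 6.68, 7.36 and 8.05 in PFL. Neither was called in an FB library, so that the p-values against FB restate the calls. The same holds for the regions 8.6 kb upstream of Lmx1b, 81.4 kb from the start of Lmx1a, and 57.3 and 80.3 kb downstream of En1. The limb parts overlapped at both. Differences from FB were 1.49 ± 0.14 (limma, adjusted p = 4.71e-05) in DFL and 1.55 ± 0.14 (adjusted p = 3.61e-05) in PFL for the first, and 1.29 ± 0.09 (adjusted p = 6.13e-06) and 1.41 ± 0.09 (adjusted p = 3.6e-06) for the second, whose sequence holds 2 matches to CAGATG. The same window held 4 regions called in all FB and no limb libraries. The promoter of Lhx8 itself had the lower folds in the limb given above, and no measurement of transcription was used here.

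Lhx5, Lhx6 and Lhx1 also held strong forebrain regions. The region 22.0 kb upstream of Lhx5 had 7.53, 8.91, 9.91 and 9.43 in FB and no limb call, and was lower by 1.45 in each limb part (limma, SE 0.09, adjusted p = 2.52e-06 for DFL and 2.45e-06 for PFL). Its size shows how the floor enters: with a floor of 2 the difference was -2.03 and with a floor of 4 it was -1.03. All limb values of this region were at the floor, so that its p-values restate the calls. At Lhx6 the region 27.9 kb downstream, in an intron of Morn5 and with a TAATTA match near its centre, had 10.1, 11.1, 8.52 and 9.21 in FB, 4.48, 5.77, 5.22 and 6.59 in DFL, and 3.59, 3.03, 3.29 and 3.58 in PFL. The 3 tissues did not overlap, and the differences from FB were -0.68 ± 0.13 (adjusted p = 0.00229) for DFL and -1.32 ± 0.13 (adjusted p = 4.2e-05) for PFL. A second Lhx6 region 103.0 kb downstream was called only in FB at 7.82, 6.67, 7.81 and 8.10. At Lhx1 a region 95.7 kb downstream in an intron of Aatf had 6.89, 6.53, 5.57 and 6.15 in FB and 1 limb call at 3.22, with differences of -0.92 ± 0.07 (adjusted p = 8.08e-06) and -0.94 ± 0.07 (adjusted p = 6.82e-06).

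The same forebrain genes also held regions with their highest folds in DFL. A region 73.9 kb upstream of Lhx1 had 6.80, 7.17, 7.90 and 6.66 in DFL, 3.02 to 4.66 in the 3 PFL libraries with a call and 2.28 and 3.27 in the FB libraries with a call. DFL exceeded FB by 1.27 ± 0.13 (limma, adjusted p = 6.69e-05). At 102.5 kb downstream of the Lhx5 start, in an untranslated region of Tpcn1, DFL had 4.89, 5.18, 5.39 and 6.96, PFL 2.25 to 3.56 in 3 libraries and FB no call, with a difference from FB of 0.92 ± 0.10 (adjusted p = 0.000119). In a coding exon of Mrrf, 54.3 kb upstream of Lhx6, DFL had 5.53 to 7.14 and PFL 2.86 to 5.19, and DFL exceeded PFL by 0.61 ± 0.13 (adjusted p = 0.0104). The windows of Lhx5 and Lhx6 hold these neighbouring genes as well, and regions were assigned by distance alone.

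En2 had the fewest tested regions. Beside its promoter, a region 42.5 kb upstream had 11, 10.1, 7.09 and 11.1 in FB and 4.22 to 6.48 in the 6 limb libraries with a call, and was lower by 1.00 in PFL (limma, SE 0.25, adjusted p = 0.0101) and by 0.84 in DFL (SE 0.25, adjusted p = 0.0238). The DFL call was lost in 5 of 12 fits that left out 1 library (wt FB replicate 1 or 2, 542 FB replicate 2, or replicate 1 of wt or 542 DFL), with adjusted p up to 0.09. A region 46.2 kb downstream in an intron of Cnpy1 was called only in FB, at 6.07, 3.40, 4.56 and 5.23, and differed by -0.53 ± 0.15 from each limb part (adjusted p = 0.0174 and 0.0161). Both calls were lost without 542 FB replicate 2 (adjusted p = 0.0635 and 0.0594).

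**Figure D5:**
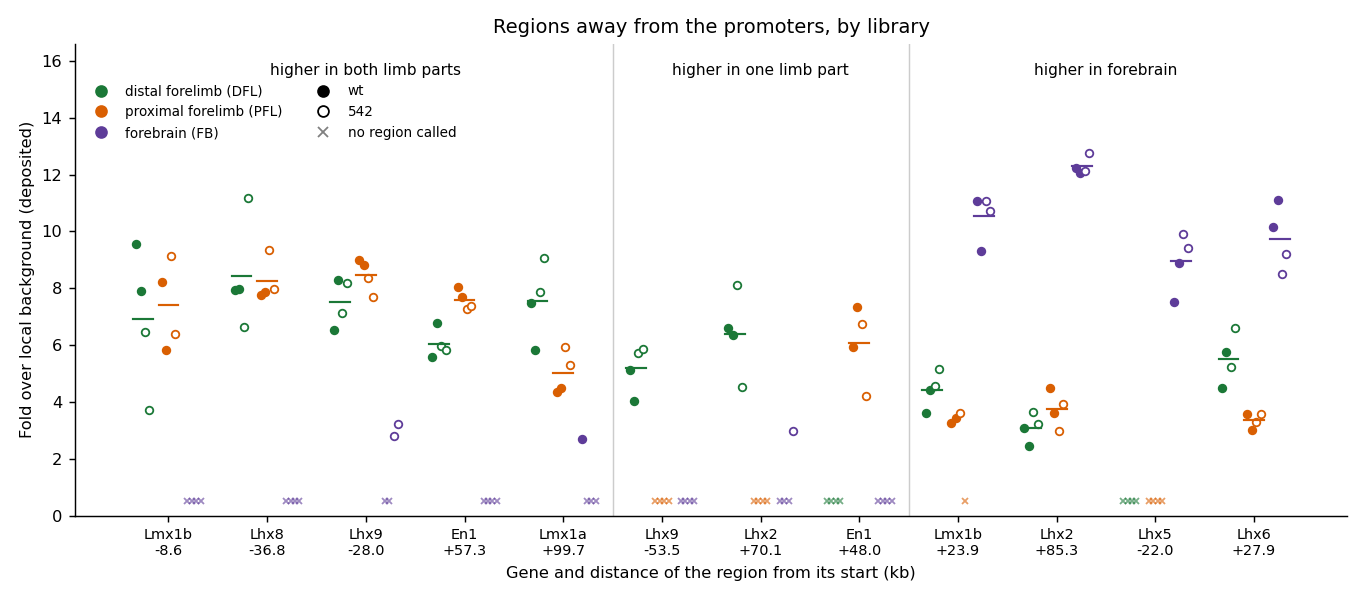
Deposited fold in each library for 12 regions away from the promoters, named by gene and distance from its start, with filled points for wt, open points for 542, crosses for libraries without a call and bars for the mean of a tissue where all 4 libraries were called. In the first group all limb libraries are called and FB has no call or calls of at most 3.23, in the middle group all libraries of 1 limb part and none of the other are called, and in the last group FB lies at 7.53 to 12.8.

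Between the limb parts the genes differed less often than between limb and forebrain, as all regions did. In DFL against PFL 26 of 226 regions were higher and 17 lower, where 22.6% of all tested regions passed (10.7% higher and 11.9% lower). Lmx1b and Lhx9 gave 5 of the higher regions each, Lmx1a 4 and Lhx8 3. Of the lower regions En1 gave 5 and Lmx1a 3. At Lhx8 a region 73.2 kb downstream of the start, in an intron of Slc44a5, was called only in DFL, at 6.45, 8.75, 2.77 and 5.48 (0.89 ± 0.19; limma, adjusted p = 0.00983). At En2 a weak region 29.3 kb upstream was called only in PFL, at 3.38, 2.86, 3.96 and 3.40 (-0.26 ± 0.06, adjusted p = 0.0108). None of the 17 tested regions at starts of the 10 genes passed in this comparison with limma, and 0 had an unadjusted p under 0.05. With tags scaled to library depth, DFL exceeded PFL at the Lhx2 promoter region at 11.7 kb by 0.45 (adjusted p = 0.00244) and at the Lhx9 promoter by 0.56 (adjusted p = 0.0447). With tags scaled to library depth in place of folds the split was 37 higher and 18 lower.

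Motifs were counted in 300 bp around the summits on both strands, as a description of the sequences. TAATTA was found in 25.5% of the 51 regions that were lower in DFL than in FB and in 7.69% of the 52 that were higher. Over the whole genome the shares were 26.2% of the lower and 13.5% of the higher regions, and 14.2% of all tested regions. CAATAAA was found in 15.4% of the 26 regions higher in DFL than in PFL, against 15.7% of all such regions in the genome, and in 4.42% of the 226 regions against 7.42% of all tested ones. CAGATG was present in 38.5% of the members higher and 35.3% of those lower in DFL than in FB, where the genome had 28.4% and 27.9%. TGACAG was present in 13.5% and 33.3%, where the genome had 17.8% and 28.1%.

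Other genes of the LIM pathway and of the limb signals were read as lists. Of all tested regions 22.6% were higher and 19.6% lower in DFL than in FB, and 25.6% and 20.3% in PFL. Around Isl1, Isl2, Lhx3 and Lhx4, other LIM homeobox genes, 12 of 62 tested regions were higher and 11 lower in DFL than in FB (median 0.00), and 18 were higher and 9 lower in PFL. Around the cofactor and LIM-only genes (Ldb1, Ldb2, Ssbp2, Ssbp3, Ssbp4, Lmo1, Lmo3 and Lmo4; Lmo2 was not analysed here) 53 of 262 were higher and 68 lower in DFL than in FB. Around the limb signals Wnt7a, Fgf10, Fgf8 and Rspo2 together, 26 of 100 were higher and 14 lower in DFL than in FB. For Fgf10, the mesenchymal signal of limb outgrowth, 14 of 36 regions were higher and 2 lower in DFL than in FB, and 13 and 2 in PFL. In DFL against FB, Fgf8 had 3 higher and 3 lower of 15 and Rspo2 9 and 2 of 30. Around Wnt7a, the dorsal ectodermal signal upstream of Lmx1b that is also expressed in the brain, 7 of 19 were lower in DFL, and in PFL 1 was higher and 7 lower.

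The last question was whether the allele 542 altered the chromatin around these genes. In 542 against wt, 3 regions were higher and 7 lower in DFL, where 3.02% of all tested regions passed (1.57% higher and 1.45% lower). In PFL 4 were lower and none higher, where 4.18% passed (1.76% higher and 2.43% lower). At an unadjusted p under 0.05, 12 regions were higher and 18 lower in 542 PFL. The direction of the PFL calls was not stable, with 5 higher and 3 lower for tags scaled to library depth and 10 higher and 0 lower without 542 PFL replicate 1. In DFL the split was 7 higher and 6 lower for tags scaled to depth. In FB 2 were higher and 3 lower, where 1.97% passed (1.01% higher and 0.964% lower). Each of these calls included libraries at the floor (1 to 10 of 12). Among the 42 regions called in all 12 libraries, which have no missing calls, limma called 0 in each tissue and 0 for the interaction, where 0.0888%, 0.0814%, 0.0629% and 0% of such regions passed in DFL, PFL, FB and the interaction. At an unadjusted p under 0.05 these 42 regions gave 4 in DFL, 4 in PFL, 3 in FB and 3 for the interaction.

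The 3 regions with the largest difference that passed in each direction in DFL lay around Lhx9, Lhx1, Lmx1b and En1. A region 81.8 kb downstream of the Lhx9 start had 5.4 and 5.79 in wt DFL, 3.12 and no call in 542 DFL and no call elsewhere but in the earlier wt DFL sample (6.28). It was lower in 542 by 0.81 (limma, SE 0.09, adjusted p = 0.00702). A region 99.6 kb upstream of Lhx1 had 3.08 and 3.15 in wt DFL, 4.42 and 4.34 in 542 DFL and 2.57 in the earlier wt DFL sample, with a difference of 0.59 ± 0.07 (adjusted p = 0.00771). At Lmx1b the regions 93.4 kb and 153.4 kb downstream were lower in 542 DFL by 1.03 (SE 0.19, adjusted p = 0.0241) and 1.00 (SE 0.20, adjusted p = 0.0397), and the first had 7.49 and 5.16 in wt against 2.65 and no call in 542. These 2 calls were lost in 5 and in 9 of 12 fits without 1 library, among them those without wt DFL replicate 1, 542 DFL replicate 2 or either 542 FB library. The other 2 higher regions, 89.4 kb upstream of Lmx1b and 98.2 kb upstream of En1, were called in both 542 DFL libraries (3.59 to 4.0) and in neither wt DFL library, with 3.40 and 2.78 in the earlier wt DFL sample, and had differences of 0.44 ± 0.07 (adjusted p = 0.0128) and 0.35 ± 0.05 (adjusted p = 0.0108). The En1 region was above the floor in the 542 DFL libraries alone, and the Lmx1b region in these and 1 wt FB library. Both wt DFL values were at the floor, so that these p-values restate the calls.

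In PFL the largest genotype difference was 80.4 kb upstream of Lhx9, where wt had 6.40 and 7.88 and 542 no call and 3.99 (-1.01 ± 0.19; limma, adjusted p = 0.0249). It was followed by regions 28.3 kb upstream of Lmx1a (-0.73 ± 0.15, adjusted p = 0.0366) and 55.3 kb inside Lmx1b (-0.48 ± 0.10, adjusted p = 0.0295). These 3 calls were lost in 6, 9 and 8 of 12 fits without 1 library, among them those without 542 PFL replicate 1 or any single FB library. In FB a region 65.6 kb upstream of Lhx5 had 6.42 and 7.66 in wt and 4.05 and 2.92 in 542 (-0.90 ± 0.14, adjusted p = 0.0207). A coding exon of Lhx9, 17.1 kb inside the gene, had 3.74 and no call in wt FB and 4.69 and 6.92 in 542 FB (0.77 ± 0.15, adjusted p = 0.0453), lost in 10 of 12 fits, all but those without a 542 FB library. The call 65.6 kb upstream of Lhx5 was lost without replicate 2 of wt or 542 FB (adjusted p up to 0.0619). The other FB calls were 73.2 kb upstream of Lhx5 (0.32 ± 0.06, adjusted p = 0.0476), 47.4 kb inside Lmx1b (-0.65 ± 0.13, adjusted p = 0.0397) and 80.6 kb upstream of Lmx1a (-0.26 ± 0.05, adjusted p = 0.0246), of which the first was lost in 10 of 10 fits and the second in 9 of 12. The first was called in the 542 FB libraries alone, so that its p-value restates the calls. The 542 libraries were also shallower (37.5 to 64.5 M tags) than the wt libraries (44.0 to 70.7 M), and the part of depth in these differences was not tested.

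Tissue differences were also read within each genotype, each with its own mapping genome. Over the 52 regions higher in DFL than in FB the median difference was 0.83 within wt and 0.65 within 542, and over the 51 lower regions it was -0.64 and -0.65. For PFL against FB the medians were 0.65 and 0.71 over the 47 higher regions and -0.70 and -0.69 over the 49 lower ones. These regions were called on both genotypes together, which in part fixes the direction within each. The interaction of tissue and genotype passed for 3 of 226 regions, where 1.89% of all tested regions passed, and for 0 with a replicate block or without any single wt library.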

How the data were processed

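ATAC-seq libraries of DFL, PFL and FB cells were examined from region lists. The authors trimmed adapters (Cutadapt), mapped pairs with bowtie2 (wt on mm10, 542 on a mutant genome), removed low-quality, mitochondrial and duplicate reads, and called regions in each library on its own with MACS2, without a control. The deposited fold is a ratio, (tags at the summit + 1) over (local background + 1). The deposited lists also give a −log10 p-value, a −log10 q-value and a score derived from the q-value. The lists hold no read counts. Fold and p-value together gave a whole number of tags (tolerance 0.001) for 99.6% to 99.99% of summits in the 12 libraries, from which depth was estimated as 37.5 to 70.7 M tags. This is an estimate, and it limits precision only through the number of tags under each summit.

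Analysis used Python 3.11.15, pandas 2.3.3, R 4.3.3 and limma 3.58.1. Regions of the 13 libraries were joined into 263923, leaving out scaffolds and chromosome 2 from 75 Mb, where the insertion moves coordinates. A library's value is its highest fold in the joined region. The fit had 6 group means and shared 1 spread (eBayes with trend and robust). Replicates are separate samples per the labels, and p-values measure the spread between these samples only where values lie above the floor. Libraries at the floor share 1 value and add no spread, so that SE and p-values can be too small there. Floor values entered 90 of the 103 calls in DFL against FB, 85 of 96 in PFL against FB and 39 of 43 in DFL against PFL. The scripts were tested on simulated data. The members and lists were chosen with earlier results of these data known. One forebrain marker gene is not reported here. Named were the promoter region of each gene, up to 2 further regions with the largest difference from FB, 1 with the largest difference between DFL and PFL, the 3 largest genotype differences per direction, and the regions at the 100 kb limit. Regions named beyond these were chosen after their values were seen. Replicate numbers did not pair samples (15 correlations of deviations between groups, -0.037 to 0.016). Sequences are from GRCm38.p6 (RefSeq), whose chromosome lengths hold all coordinates of the lists. Alternatives were other floors, scalings, filters, region definitions, tags scaled to depth, the earlier sample, a replicate block and each library left out.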

Additional observations from a re-analysis of the deposited data

Results flagged for a closer look

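The tissue differences of 3 of the 226 regions differed between wt and 542 by a test of the difference itself (limma, F test of the interaction of tissue and genotype, adjusted over 145907 regions, of which 1.89% passed). The first lay 81.8 kb downstream of the Lhx9 start (adjusted p = 0.0402) and was called in wt DFL at 5.4 and 5.79, in 542 DFL at 3.12 and in no other group. The second lay 99.6 kb upstream of Lhx1 (adjusted p = 0.0422) and was called in DFL alone, at 3.08 and 3.15 in wt and 4.42 and 4.34 in 542. The third lay 47.4 kb inside Lmx1b (adjusted p = 0.0488), where wt FB had 5.21 and 5.25 and 542 FB 2.65 and 2.86, while the limb libraries had 4.15 to 5.54 in both genotypes. All 3 include libraries at the floor, and those at Lhx9 and Lhx1 entered the test through DFL libraries alone. Genotype cannot be told apart from the mapping genome here either. With a replicate block, without the filter, or without any single wt library, 0 regions passed.

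The earlier wt DFL sample, which entered none of the comparisons, held 20 of the 387 joined regions (5.17%) that were called in none of the 12 libraries. Over all joined regions in the genome this share was 5.08%, so that the number is not particular to these genes. The earlier sample was also the deepest library (78.0 M estimated tags), and the number was 1 when each library was reduced to its 50000 strongest regions.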

How the results depend on the processing

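Directions of the named tissue calls held, with 1 exception: of 54 tissue calls, 48 passed in every fit without 1 library and 42 under every setting tried, and of 14 genotype calls 3 did. The exception was the Lhx2 promoter region at 11.7 kb in PFL against FB, at -0.21 with tags scaled to depth.

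Counts of members that moved by over 1.5 times were as follows. DFL against FB (103), PFL against FB (96) and DFL against PFL (43) gave 15, 14 and 4 in regions called in all 12 libraries, and 21, 23 and 3 with a log2 difference of at least 1. The first setting tested 42 members in place of 226, and 33%, 36.5% and 7.58% of such regions in the genome passed. With a log2 difference of at least 1, 12.1%, 12.9% and 2.83% of all tested regions passed. Counts for 542 against wt in DFL (10) were 0 in regions called in all 12 libraries and 1 with a log2 difference of at least 1. Those for 542 against wt in PFL (4) were 2 without the filter, 0 in regions called in all 12, 7 at a −log10 q of at least 10, 8 with tags scaled to depth and 1 at a log2 difference of at least 1. Those for 542 against wt in FB (5) were 1 with a floor of 4, 1 without the filter, 0 in regions called in all 12, 3 among the 50000 strongest, 1 with a replicate block and 0 at a log2 difference of at least 1. The tissue by genotype interaction (3) gave 7 with a floor of 2, 5 with quantile normalization, 0 without the filter, 0 in regions called in all 12, 16 at a −log10 q of at least 10, 15 among the 50000 strongest, 8 with tags scaled to depth, 7 with the earlier sample added, 0 with a replicate block and 0 at a log2 difference of at least 1. With the replicate block, DFL against FB gave 102, PFL against FB 95, DFL against PFL 42, 542 against wt in DFL 9 and in PFL 5. The number of members tested and the share passing over the genome also moved between settings. The interaction counts of 16 and 15 came from 151 and 134 tested members, where 10.1% and 9.41% of all tested regions passed. The cause of these moves was not tested. The 8 of 542 against wt in PFL with tags scaled to depth were 5 higher and 3 lower. For 542 against wt in DFL the split was 7 higher and 6 lower with tags scaled to depth, and 0 higher and 8 lower at a −log10 q of at least 10.

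Without 1 library, counts ran from 87 to 104 for DFL against FB, 79 to 104 for PFL against FB, 34 to 49 for DFL against PFL, 5 to 12 for 542 against wt in DFL, 1 to 10 in PFL and 1 to 6 in FB, and 0 to 7 for the interaction. Counts for 542 against wt in DFL fell to 5 without 542 DFL replicate 1 and to 6 without wt DFL replicate 2 or either 542 FB replicate. Those in PFL rose to 10, all higher, without 542 PFL replicate 1, rose to 7 without 542 PFL replicate 2, and fell to 1 without any 1 FB library. Those in FB fell to 1 without either wt PFL replicate, to 2 without either wt DFL replicate or wt FB replicate 2, and to 3 without either 542 DFL replicate, 542 FB replicate 2, 542 PFL replicate 1 or wt FB replicate 1. The interaction gave 7 without 542 PFL replicate 1, 1 without 542 FB replicate 1 and 0 without any 1 wt library.

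Regions called in all 3 tissues (42) were 24 at a −log10 q of at least 10 and 27 among the 50000 strongest, those of both limb parts (13) 5 and 6, of DFL only (5) 2 and 2, and of PFL only (8) 0 and 0. These settings held 213 and 168 joined regions around the genes in place of 387. The median library held 158 regions in all, 76 among the 50000 strongest and 101 within 50 kb. Depth limits weak regions, since 9.77% to 21.1% of a library's regions lay under the floor.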
